A study of Rattus norvegicus with 12 samples.

Results

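Hippocampal RNA of rats with hypoxic-ischemic damage to the brain (HI) was sequenced and compared with that of sham controls. The comparison used 6 of the 12 libraries of the series, 3 per group, taken by the tissue and treatment labels and called sham 1 to 3 and HI 1 to 3. The study concerns cognitive impairment after HI in newborn rats and signalling from lipopolysaccharide through TLR4, MyD88 and NF-κB. The sources used here give no strain, age, sex, side of the brain or time after injury. Nor do they state that every library is from its own animal, so p-values measure a spread between libraries that may be partly technical. Expression was deposited as FPKM, fragments per kilobase of transcript normalised to the mapped fragments of a library, for 14266 genes. The 13181 genes that reached 1 FPKM in 3 or more of the 6 libraries were tested with limma on log2(FPKM + 1), and every log2 difference below is HI minus sham on that scale, with its standard error. That scale understates differences of genes with low FPKM.

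The hippocampus is the part of the brain where new memories are formed. Its pyramidal neurons of area CA1 are among the cells most easily killed by lack of oxygen and blood flow, and glia and microglia respond to such injury for weeks. Receptors for glucocorticoids, the adrenal stress hormones, are abundant in hippocampal neurons, and immediate early genes there are transcribed within minutes of neuronal activity.

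The libraries had like totals, but HI 1 carried RNA of another tissue. The listed FPKM summed to between 452291 and 466432 per library, between 13013 and 13210 genes reached 1 FPKM, and the depth in reads is unknown. Pearson's r across genes between 2 libraries was at least 0.981, a description over genes that share each library. The 18 tested markers of hippocampal subfields, the zones of the hippocampus, had a mean log2(FPKM + 1) within 0.03 of the sham mean in every HI library and a median log2 difference of 0.01. Single markers differed in both directions, 9 higher and 9 lower, between -0.30 and 0.33, and their summed FPKM was 865 in HI 1, 1014 in HI 2 and 934 in HI 3 against 974 to 1007 in sham. The 20 interneuron markers had a mean log2(FPKM + 1), minus that of sham, of -0.25 in HI 1, 0.00 in HI 2 and 0.02 in HI 3. Ttr, the thyroid hormone carrier secreted by the choroid plexus, stood at 0.391, 6.76 and 4.95 FPKM in sham and 4177, 12.9 and 18.2 FPKM in HI. The 17 listed markers of the choroid plexus, which lies against the hippocampus in the ventricle and makes cerebrospinal fluid, summed to 4738 FPKM in HI 1, to 33.3 and 49.4 FPKM in HI 2 and HI 3 and to between 20.4 and 28.3 FPKM in sham. Of these markers 12 were below the filter, and all 12 stood at 3.57 to 49.1 FPKM in HI 1 and at no more than 0.705 FPKM in any other library. The 3 listed genes of the Y chromosome stood at 8.18 to 30.4 FPKM in HI 1 and at no more than 0.0959 FPKM in the other 5, so HI 1 stood apart there too. HI and sham were thus not balanced for this mark of male tissue, and its part in the differences was not tested. The counts of the main lists are therefore given without HI 1 as well.

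Myelin varied between libraries within both groups. Mbp, myelin basic protein, stood at 528, 465 and 762 FPKM in sham and 1018, 523 and 858 FPKM in HI. The summed FPKM of the 24 listed myelin and oligodendrocyte markers was 1434, 1308 and 2289 in sham 1, 2 and 3 and 3199, 1458 and 2542 in HI 1, 2 and 3, so the groups overlapped, with HI 2 beside sham 1 and 2. Enpp2, a member of this list, is in the choroid plexus list as well, and its log2 difference of 1.60 was the largest of the myelin list. It counts in the sums of both lists and in the myelin score used below. All 23 tested members of the myelin list were higher on average in HI, with a median log2 difference of 0.44 (0.25 over the 22 tested without HI 1), and 0 had an unadjusted p under 0.05. Without HI 2, 21 of them did, where 831 of 13077 genes were higher (6.35%) and 797 lower (6.09%) at that threshold. In bulk tissue, a difference in the number of cells of a type and one in RNA per cell cannot be told apart.

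**Figure D1:**
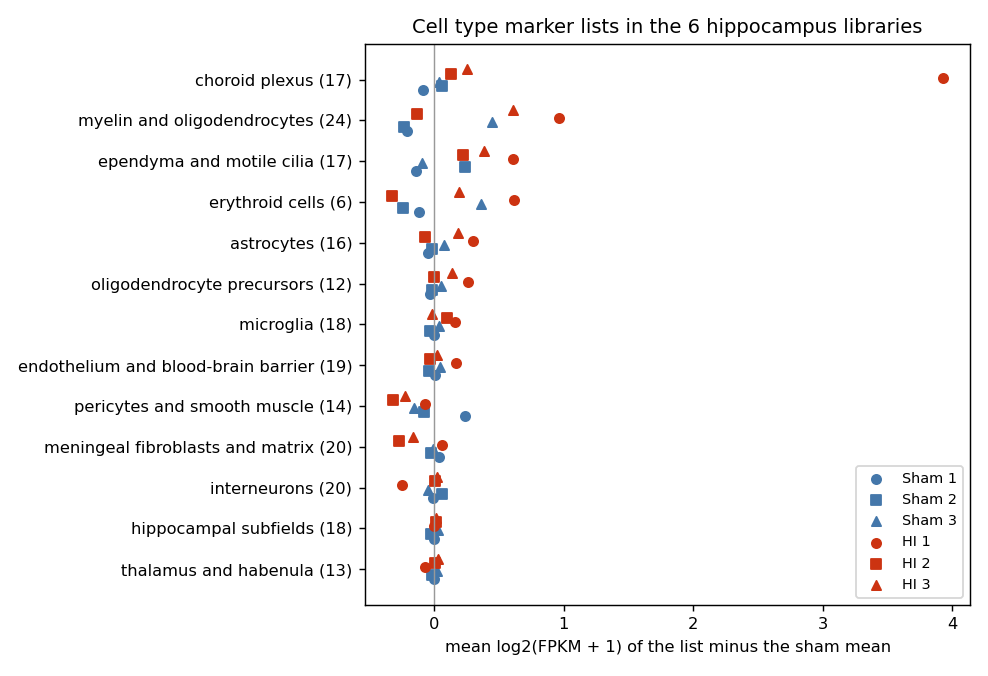
Mean log2(FPKM + 1) of cell type marker lists in each library minus the sham mean (horizontal axis); each row is a list with its number of listed members, and each symbol 1 library. HI 1 stands 3.93 above the sham mean in choroid plexus markers, the myelin list spreads within both groups, and the hippocampal subfield list lies between -0.03 and 0.03.

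A single gene was called, lower in HI, and the call was lost under several settings. Rn60_20_0051.7 (ENSRNOG00000053095), a predicted locus with no name or role in the files, stood at 6.81, 4.9 and 9.66 FPKM in sham and 0, 0.416 and 0 FPKM in HI. Its log2 difference was -2.81 ± 0.23 (limma, Benjamini-Hochberg adjusted p = 0.0198), and the groups did not overlap. It reached the filter through the sham libraries alone, where it was high, so that separation is no support of its own. In the deposited coordinates, for which the sources used here name no genome build, it spans chromosome 20 from 5048773 to 5051087 on the + strand. On the same strand it shares 1592 of its 2315 bases with Ddah2, which codes for an enzyme family member linked to nitric oxide control, and 394 with Clic1, an intracellular chloride channel. The counting may split reads among the 3 genes, so its value is uncertain. Ddah2 stood at 33.8, 39.8 and 34.8 FPKM in sham and 40.8, 41.7 and 37 FPKM in HI and Clic1 at 15.6, 16.4 and 17.1 FPKM in sham and 13.2, 15.3 and 13 FPKM in HI, log2 differences of 0.14 ± 0.08 and -0.23 ± 0.08. The call was lost with a pseudocount of 0.1 (adjusted p = 0.134), with no mean-variance trend (0.0648) and with a myelin score as a covariate (0.0899), and the gene did not reach the filter when any sham library was left out.

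Of the 13181 genes 1 passed an adjusted p of 0.05, which is 0.00759% of those tested and was the lower one; 0 were higher (0.0%). At an unadjusted p under 0.05, 455 genes were higher in HI (3.45%) and 417 lower (3.16%), 6.62% in all. Without HI 1, 13053 genes were tested and 3 passed the adjusted threshold (0.023%), 1 higher (0.00766%) and 2 lower (0.0153%), while 337 were higher (2.58%) and 343 lower (2.63%) at an unadjusted p under 0.05, 5.21% in all. The median log2 difference was -0.00, with 6528 genes higher and 6653 lower. The second smallest adjusted p was 0.124, so none of the genes that follow passed over all genes, and their values are given as levels.

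Genes in this paragraph and the next had the smallest p among those with non-overlapping groups and no provisional name (LOC, RGD or AABR). Their separation was thus fixed by the choice. Those higher in HI were of several kinds. Usp54, a member of the ubiquitin-specific protease family, stood at 8.31, 8.2 and 7.78 FPKM in sham and 12.7, 13.4 and 12.6 FPKM in HI, a log2 difference of 0.61 ± 0.07 (limma adjusted p = 0.124). Sult1a1, a sulfotransferase of phenols and catecholamines, stood at 4.18, 3.46 and 5.32 FPKM in sham and 9.71, 8.19 and 9.61 FPKM in HI (0.95 ± 0.13, limma adjusted p = 0.251). In both genes every HI library was above every sham library, as the choice required. Slco2a1, a prostaglandin transporter, stood at 1.67, 1.38 and 1.42 FPKM in sham and 2.79, 2.89 and 2.94 FPKM in HI (0.64 ± 0.10). Pnpla7, a lysophospholipase, stood at 3.46, 3.33 and 3.55 FPKM in sham and 5.8, 4.94 and 5.2 FPKM in HI (0.50 ± 0.09). Mertk, the receptor kinase by which microglia and astrocytes take up dying cells and synapses, stood at 5.97, 5.74 and 5.79 FPKM in sham and 7.75, 8.3 and 7.58 FPKM in HI (0.38 ± 0.08). Mr1, which presents bacterial vitamin metabolites to T cells, was near the filter, at 0.822, 0.908 and 1.03 FPKM in sham and 2.06, 2.1 and 1.73 FPKM in HI. Spata18, a regulator of mitochondrial quality, was near it too, at 0.489, 0.682 and 0.559 FPKM in sham and 1.98, 1.44 and 1.41 FPKM in HI. It reached the filter through HI alone and was not tested without HI 1. All HI libraries were above all sham libraries in these genes too, again by the choice of genes.

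Among the genes with the smallest p in the other direction were channel, transport and synaptic genes. Kcne5, an accessory subunit of voltage-gated potassium channels, stood at 11.7, 14.1 and 12.1 FPKM in sham and 7.3, 6.77 and 7.45 FPKM in HI, a log2 difference of -0.73 ± 0.09 (limma adjusted p = 0.14). Cmc2, a factor in the assembly of cytochrome c oxidase, stood at 12.7, 13.7 and 16 FPKM in sham and 7.98, 8.93 and 9.59 FPKM in HI (-0.62 ± 0.10). Slc38a5, a glutamine transporter, stood at 6.82, 6.42 and 6.49 FPKM in sham and 3.51, 4.46 and 4.63 FPKM in HI (-0.55 ± 0.11). The HI libraries were below every sham library in each of these, as the choice required. Syt5, a synaptotagmin of vesicle release, stood at 121, 131 and 120.2 FPKM in sham and 94.1, 98 and 106 FPKM in HI (-0.32 ± 0.06). Zfp287, a zinc finger gene, stood at 4.09, 3.89 and 3.95 FPKM in sham and 2.6, 2.65 and 2.73 FPKM in HI (-0.44 ± 0.09), and Fam189b at 23.6, 24.2 and 24.1 FPKM in sham and 18.4, 18.7 and 20.1 FPKM in HI (-0.31 ± 0.06). Their groups were apart by the same choice. Over all genes non-overlapping groups were common, with 844 genes higher (6.4%) and 898 lower (6.81%).

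**Figure D2:**
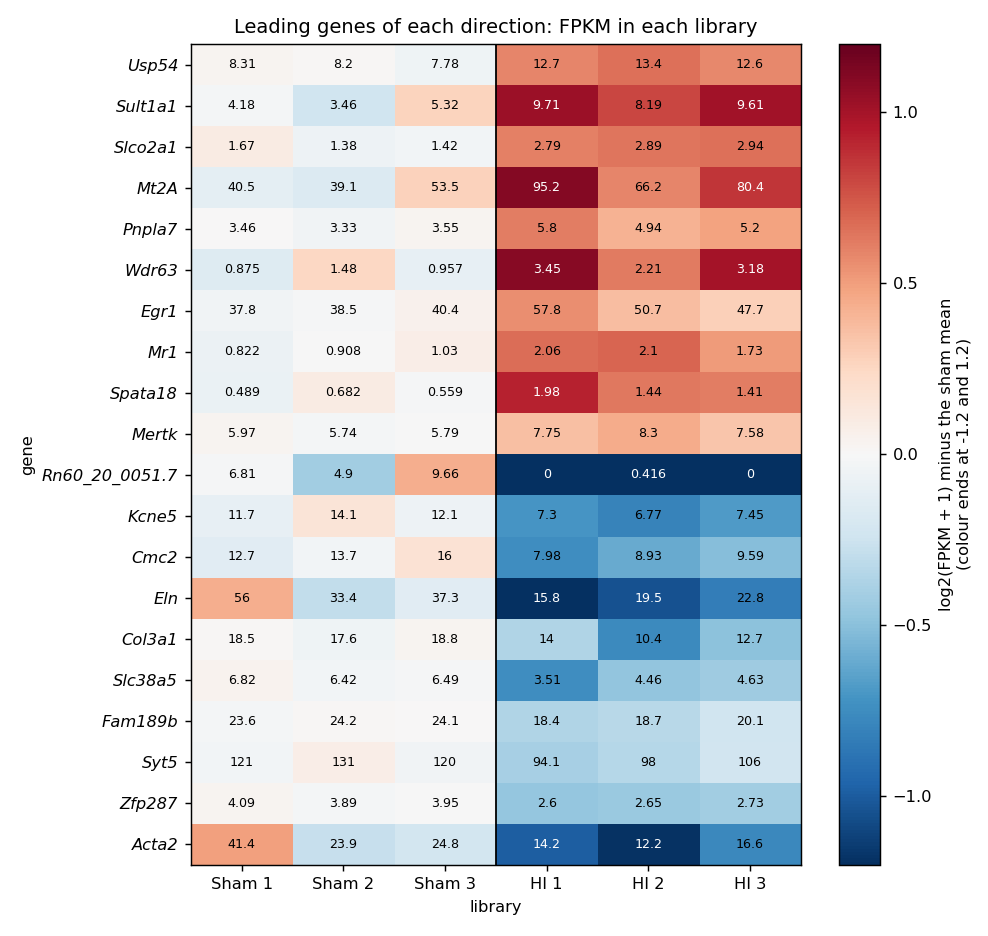
FPKM of the 10 genes per direction with the smallest p, non-overlapping groups and a mean of at least 1 FPKM (numbers). Genes with provisional names (LOC, RGD or AABR) were left out. Colours are log2(FPKM + 1) minus the sham mean, columns are libraries and the black line parts sham from HI. Rn60_20_0051.7 alone passed over all genes; Usp54 stands between 12.6 and 13.4 FPKM in HI and Kcne5 between 6.77 and 7.45 FPKM.

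Described by list, the genes at an unadjusted p under 0.05 were most frequent, among lists with at least 10 tested members, in glucocorticoid targets (8 of 18 higher, 44.4%), motile cilia and ependyma (5 of 12 higher, 41.7%, of 17 listed), immediate early genes (9 of 30 higher, 30.0%), pericytes and smooth muscle (4 of 14 lower, 28.6%), astrocytes (4 of 16 higher, 25.0%) and fibroblasts and matrix (5 of 20 lower, 25.0%). Over all genes the share was 3.45% higher and 3.16% lower. Lists were chosen with earlier results of these libraries known and got no test, so these shares describe them only. The ciliary share is over tested members, of which Ccdc40 reached the filter through HI alone.

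**Figure D3:**
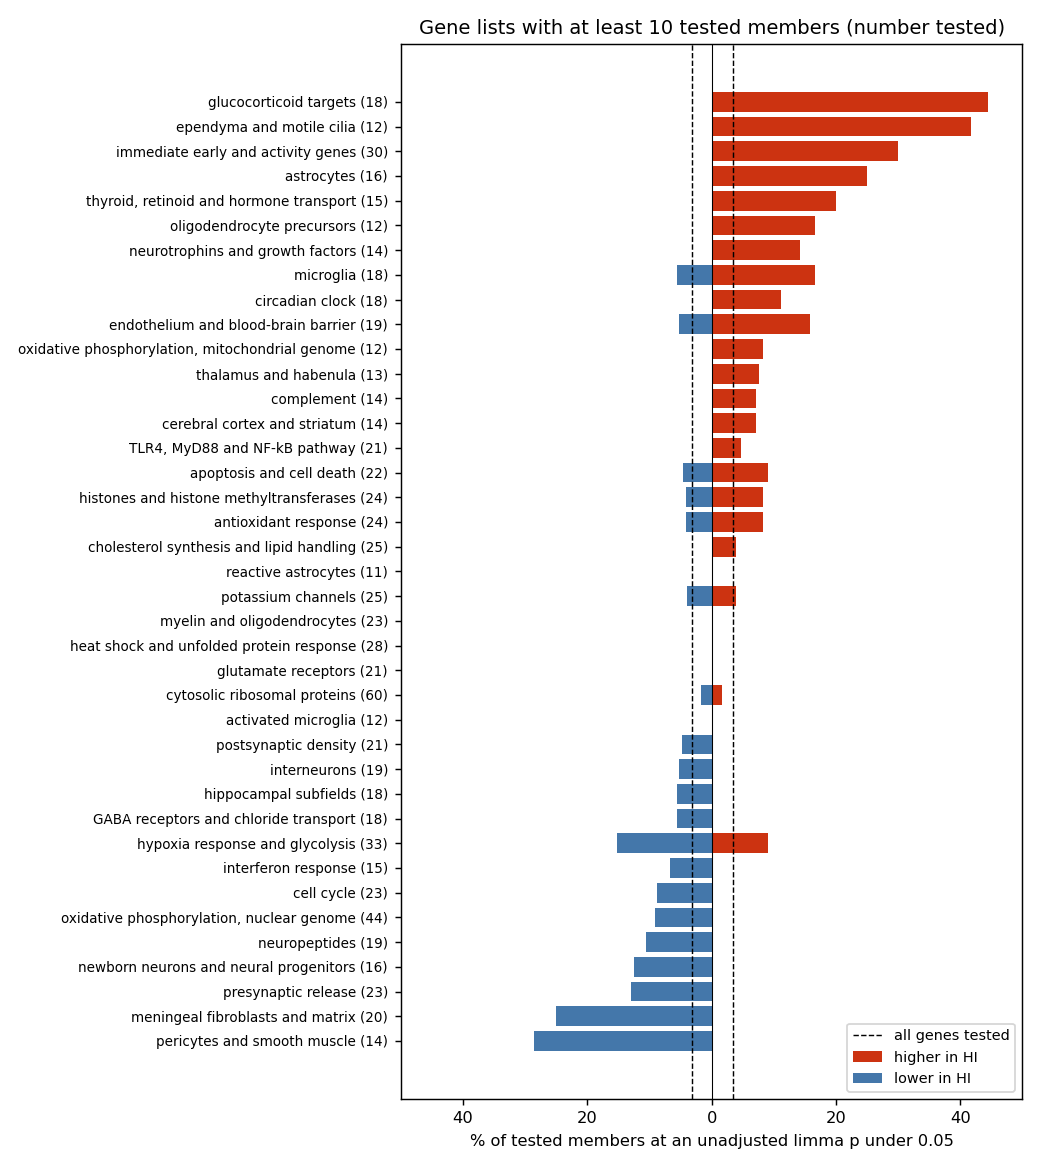
Share of tested members at an unadjusted limma p under 0.05, in percent, higher in HI to the right and lower to the left, for the lists with at least 10 tested members (number in brackets); dashed lines are the shares over all genes, 3.45% and 3.16%. Glucocorticoid targets reach 44.4% on the right, and pericytes and smooth muscle 28.6% on the left; the ciliary share leaves out 5 listed members below the filter.

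Genes that glucocorticoids are known to switch on stood higher, as a list, in all 3 HI libraries. Glucocorticoids act through the receptor encoded by Nr3c1, which binds DNA when occupied by the hormone. Of 18 tested targets, 15 were higher on average and 3 lower. At an unadjusted p under 0.05, 8 were higher and 0 lower (44.4%), and 8 had groups that did not overlap, as 6.4% of all genes did in that direction. The median log2 difference was 0.20, and 0 passed over all genes. The mean of the list stood 0.24, 0.22 and 0.25 above the sham mean in HI 1, HI 2 and HI 3 on the log2 scale, with sham libraries between -0.03 and 0.06. Without HI 1, 9 members were at that threshold, against 2.58% of all genes, with a median of 0.25. Over 13 alternative settings the number was between 7 and 9.

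Mt2A, a metallothionein that binds zinc and copper, stood at 40.5, 39.1 and 53.5 FPKM in sham and 95.2, 66.2 and 80.4 FPKM in HI, a log2 difference of 0.85 ± 0.15 (0.72 without HI 1). Fkbp5, the co-chaperone that lowers the receptor's affinity for its hormone and is induced by it, stood at 13.9, 13.5 and 13.6 FPKM in sham and 16.1, 18.6 and 16.8 FPKM in HI (0.31 ± 0.07). Dusp1, a phosphatase that turns off MAP kinases, stood at 10.4, 10.7 and 11.2 FPKM in sham and 13.2, 12.7 and 13.5 FPKM in HI (0.27 ± 0.07). Sult1a1, described above, was the member with the largest difference. In all 4 the lowest HI library was above the highest sham library. The receptor gene itself overlapped between the groups, with Nr3c1 at 14.9, 12.7 and 14.9 FPKM in sham and 14.9, 12.7 and 14.1 FPKM in HI (-0.03 ± 0.09), and so did Tsc22d3, another classical target, at 26.7, 26.1 and 27.8 FPKM in sham and 26.8, 27.7 and 26.7 FPKM in HI (0.01 ± 0.06); both were named after their values were seen. 

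A share of the immediate early genes stood higher in HI. Dusp1, described above, is in this list as well as among the glucocorticoid targets, so the counts of these lists are not independent. Of 30 tested, 22 were higher and 8 lower on average, 9 were higher and 0 lower at an unadjusted p under 0.05 (30.0% against 3.45% of all genes), the median log2 difference was 0.14, and 0 passed over all genes. Their list mean stood 0.12, 0.21 and 0.10 above sham in HI 1, HI 2 and HI 3. Without HI 1 the number was again 9, with a median of 0.15, and over the alternative settings between 7 and 12. Egr1, a zinc finger factor of synaptic plasticity, stood at 37.8, 38.5 and 40.4 FPKM in sham and 57.8, 50.7 and 47.7 FPKM in HI, a log2 difference of 0.41 ± 0.08 (limma adjusted p = 0.599). Arc, which controls AMPA receptor uptake at synapses, stood at 27.6, 27.3 and 31.9 FPKM in sham and 49.5, 36.8 and 38.5 FPKM in HI (0.50 ± 0.12; 0.37 without HI 1). The groups were apart in both, and HI 1 was the highest library. Nr4a1, an orphan nuclear receptor, stood at 16.8, 17.6 and 20.5 FPKM in sham and 24.5, 22.2 and 24.1 FPKM in HI (0.35 ± 0.08), and Btg2, an antiproliferative gene, at 8.51, 9.54 and 7.82 FPKM in sham and 10.6, 11.4 and 11.4 FPKM in HI (0.34 ± 0.09). Fos, the AP-1 subunit most used to mark active neurons, stood at 5.03, 6.13 and 4.5 FPKM in sham and 5.94, 7.69 and 6.61 FPKM in HI (0.32 ± 0.13), where sham 2 lay above HI 1, and Npas4, induced only by neuronal activity, at 1.61, 2.22 and 1.73 FPKM in sham and 4.48, 2.61 and 1.97 FPKM in HI (0.45 ± 0.22; 0.20 without HI 1); these 2 were named after their values were seen. Jun and Bdnf, likewise, stood at 40.4, 45.5 and 42.5 FPKM in sham and 35.4, 42.5 and 41.3 FPKM in HI and 7.43, 7.4 and 7.99 FPKM in sham and 7.39, 8.04 and 8.97 FPKM in HI, with overlapping groups.

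**Figure D4:**
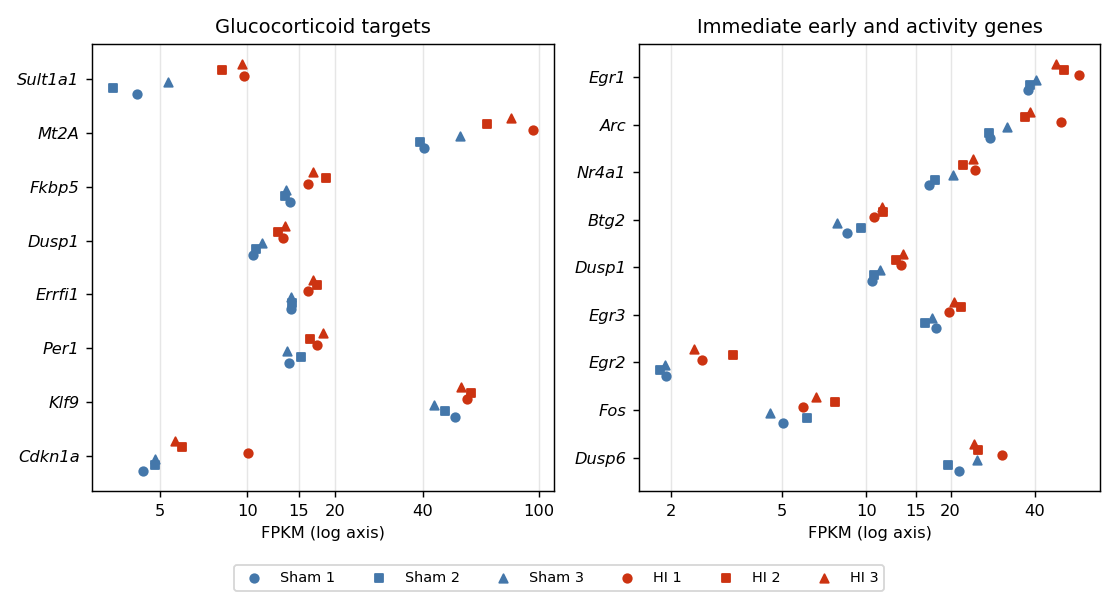
FPKM (log axis) of the members of the glucocorticoid and immediate early lists with an unadjusted p under 0.05; each symbol is 1 library, sham in blue and HI in red. For Mt2A, Egr1 and Arc every HI library lies right of every sham library, while Fos overlaps.

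Some members of both lists have known promoter elements. The 250 bases before the start of 4 named members are shown here from RefSeq (GRCr8, a build that need not be that of the deposited files). Matches on either strand are in capitals. In Egr1 these are CArG boxes, bound by serum response factor, in Btg2 and Dusp1 the cyclic AMP response element TGACGTCA, and in Mt2A the metal response element, searched as TGCACNC or TGCGCNC.
Egr1, chr18:26736828-26737077, + strand: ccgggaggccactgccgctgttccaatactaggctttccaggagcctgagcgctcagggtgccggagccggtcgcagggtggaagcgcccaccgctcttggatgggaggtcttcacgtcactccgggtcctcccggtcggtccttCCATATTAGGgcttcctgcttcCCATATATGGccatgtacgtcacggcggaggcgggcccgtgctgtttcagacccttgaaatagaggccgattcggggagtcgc
Btg2, chr13:48087691-48087940, - strand: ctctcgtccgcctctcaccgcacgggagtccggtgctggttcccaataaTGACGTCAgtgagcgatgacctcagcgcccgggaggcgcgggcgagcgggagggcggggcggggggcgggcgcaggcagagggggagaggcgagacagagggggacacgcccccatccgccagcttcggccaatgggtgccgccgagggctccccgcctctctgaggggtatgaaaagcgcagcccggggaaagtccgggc
Dusp1, chr10:17184603-17184852, + strand: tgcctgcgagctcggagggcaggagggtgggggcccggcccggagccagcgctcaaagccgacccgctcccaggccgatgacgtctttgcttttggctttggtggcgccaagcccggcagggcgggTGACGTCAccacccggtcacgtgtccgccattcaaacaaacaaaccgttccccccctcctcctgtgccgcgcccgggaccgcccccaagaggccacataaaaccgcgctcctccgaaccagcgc
Mt2A, chr19:10838709-10838958, - strand: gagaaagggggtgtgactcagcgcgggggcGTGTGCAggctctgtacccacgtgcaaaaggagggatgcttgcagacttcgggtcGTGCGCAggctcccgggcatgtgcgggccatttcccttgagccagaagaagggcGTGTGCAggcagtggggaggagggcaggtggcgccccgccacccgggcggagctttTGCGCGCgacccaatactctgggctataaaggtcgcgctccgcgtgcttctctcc
The CArG boxes of Egr1 began 105 and 83 bases before the start, the element of Btg2 201 and that of Dusp1 124 bases before it, and the 4 metal response elements of Mt2A 220, 165, 111 and 55 bases before it. Of the 24 tested immediate early genes with a promoter in the table, 5 held a CArG box (20.8%, against 1.5% of 27457 promoters) and 3 the TGACGTCA element (12.5% against 1.7%). A metal response element was common, at 21.2% of all promoters and 4 of 15 glucocorticoid targets (26.7%), and 10 of the 24 immediate early genes held one (41.7%). The X-box core GTTGCC was held by 2 of 9 ciliary promoters (22.2%) and 9.9% of all. No searched motif is the glucocorticoid receptor's own, and a match describes letters, not a site in use.

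Markers of pericytes and smooth muscle stood lower in HI on average. Endothelial markers stood on both sides, with 10 of 19 tested higher and 9 lower on average and a median of 0.04. At an unadjusted limma p under 0.05, 3 of the endothelial markers were higher and 1 lower (15.8% and 5.26%, against 3.45% and 3.16% of all genes). Of 14 tested pericyte and smooth muscle markers 11 were lower on average, 4 of them at an unadjusted p under 0.05 (28.6% against 3.16%) and 0 in the other direction, with a median of -0.14. The other 3 were higher on average, by up to 0.54 on the log2 scale. By the mean log2(FPKM + 1) of the list the groups overlapped, with HI 1 at 3.21 above sham 2 at 3.20 and sham 3 at 3.13. Acta2, smooth muscle actin of arteries, stood at 41.4, 23.9 and 24.8 FPKM in sham and 14.2, 12.2 and 16.6 FPKM in HI, a log2 difference of -0.98 ± 0.20 (limma adjusted p = 0.599; -0.98 without HI 1). Myl9, a myosin light chain, stood at 37.8, 29.6 and 28.6 FPKM in sham and 29.2, 20.7 and 21 FPKM in HI (-0.43 ± 0.15), and Tagln, an actin-binding protein, at 38.8, 24.3 and 27.8 FPKM in sham and 25, 17.6 and 22.7 FPKM in HI (-0.45 ± 0.18). Sham 1 was the highest library in all 3, and HI 1 overlapped sham in Myl9 and Tagln. Vtn, vitronectin made by pericytes, stood at 20.7, 19 and 19.6 FPKM in sham and 17, 16.5 and 18 FPKM in HI (-0.19 ± 0.07). Without HI 1, 5 of 13 were lower at that threshold, but the number was 1 without sham 1 (median -0.06), 1 without HI 2 and 2 without HI 3.

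Fibroblast and matrix genes were also lower on average, with 12 of 20 lower, 5 of them at an unadjusted p under 0.05 (25.0% against 3.16%) and 0 higher, and a median of -0.10. The list did not lie lower in every HI library, since HI 1, at a mean log2(FPKM + 1) of 4.08, was above all sham libraries (at most 4.06). Eln, elastin of artery walls, stood at 56, 33.4 and 37.3 FPKM in sham and 15.8, 19.5 and 22.8 FPKM in HI (-1.07 ± 0.19, limma adjusted p = 0.599), and Col3a1, a fibrillar collagen, at 18.5, 17.6 and 18.8 FPKM in sham and 14, 10.4 and 12.7 FPKM in HI (-0.54 ± 0.10). All HI libraries were below all sham libraries in both. Lum and Dcn, small proteoglycans of the meninges, stood at 8.4, 9.4 and 9.18 FPKM in sham and 5.71, 6.34 and 7.34 FPKM in HI (-0.43 ± 0.10) and 26.5, 28.8 and 27.2 FPKM in sham and 18.3, 20.4 and 24.5 FPKM in HI (-0.38 ± 0.10). Without HI 1, 8 of 20 were at that threshold with a median of -0.15, and over the alternatives between 5 and 8.

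Genes of motile cilia, which in the brain mark the ependymal cells lining the ventricles, stood higher in HI on average. Of 17 listed, 12 were tested, 11 of them higher on average and 5 at an unadjusted p under 0.05 (41.7% against 3.45%), with a median of 0.41, or 4 of 11 and 0.36 without HI 1. The number was 3 without sham 1, sham 3 or HI 3, 6 without sham 2, and 1 of the 4 with a mean of at least 5 FPKM. The filter keeps members that are high in HI alone, so this count is not one over all members. Ccdc40, which positions the inner dynein arms, stood at 0.518, 0.837 and 0.797 FPKM in sham and 3.14, 1.45 and 1.97 FPKM in HI (0.86 ± 0.20, not tested without HI 1), Cfap43, a protein of the ciliary axoneme, at 0.596, 1.53 and 0.942 FPKM in sham and 2.26, 1.75 and 2.26 FPKM in HI (0.63 ± 0.18), and Rsph1, a radial spoke protein, at 2.36, 2.49 and 1.82 FPKM in sham and 3.2, 4.28 and 3.04 FPKM in HI (0.48 ± 0.14). Their groups did not overlap. Cfap126, which docks basal bodies in multiciliated cells, stood at 1.82, 4.02 and 1.45 FPKM in sham and 15.9, 4.21 and 4.24 FPKM in HI (1.24 ± 0.46; 0.68 without HI 1), with HI 1 apart. Wdr63, an axonemal dynein gene outside the list, stood at 0.875, 1.48 and 0.957 FPKM in sham and 3.45, 2.21 and 3.18 FPKM in HI (0.90 ± 0.17). The list's summed FPKM was 36.3 to 49.6 in sham and 51.0 to 77.8 in HI, highest in HI 1, the library with choroid plexus RNA. By the mean log2(FPKM + 1) of all 17 the groups overlapped, with sham 2 at 1.76 and HI 2 at 1.75. Beside it the choroid plexus sum was 33.3 and 49.4 FPKM in HI 2 and HI 3, above the 20.4 to 28.3 FPKM of sham, and the part of ventricular tissue in the result was not tested.

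**Figure D5:**
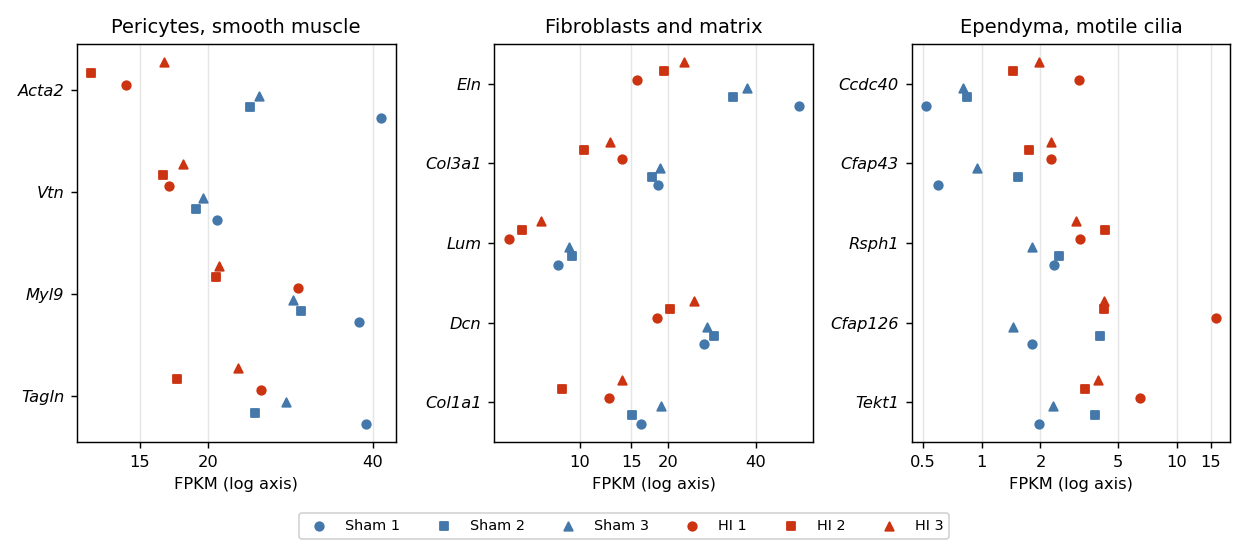
FPKM (log axis) of members of 3 lists with an unadjusted p under 0.05, each symbol 1 library, sham in blue and HI in red. Acta2 and Eln lie lower in every HI library than in any sham library, Ccdc40 and Rsph1 higher, and Cfap126 reaches 15.9 FPKM in HI 1.

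Astrocyte markers stood slightly higher. Of 16 tested, 13 were higher on average, with a median of 0.14. At an unadjusted limma p under 0.05, 4 were higher (25.0% against 3.45% of all genes). That number was 2 without HI 1 (median 0.04), 1 without sham 1, sham 2 or HI 3, and 9 without HI 2, the fit in which 6.35% of all genes were higher. The list mean minus the sham mean was 0.30 in HI 1, -0.07 in HI 2 and 0.18 in HI 3, and HI 2 was lower than any sham library. For the myelin list the same values were 0.96, -0.13 and 0.61, and with a myelin score as covariate 1 astrocyte marker was higher and 1 lower at the threshold, with a median of 0.04. Gja1, the main gap junction protein of astrocytes, stood at 129, 125 and 128 FPKM in sham and 153, 141 and 153 FPKM in HI (0.23 ± 0.05). Aldoc, their glycolytic aldolase, stood at 331, 322 and 361 FPKM in sham and 378, 380.4 and 382 FPKM in HI (0.17 ± 0.06), and Glul, glutamine synthetase, at 440.3, 412 and 425 FPKM in sham and 478, 448 and 476 FPKM in HI (0.13 ± 0.05). The groups were apart in all 3. Of 11 tested genes of reactive astrocytes 3 were higher and 8 lower on average, with 0 at that threshold in either direction. Emp1, Cd44 and Ptx3, members of that list, stood at 4.54, 4.12 and 4.31 FPKM in sham and 3.98, 3.59 and 2.63 FPKM in HI, at 3.65, 3.14 and 3 FPKM in sham and 4.64, 3.76 and 3.6 FPKM in HI and at 5.14, 6.76 and 6.87 FPKM in sham and 5.44, 6.42 and 5 FPKM in HI. Olig2, a factor of the oligodendrocyte lineage, stood at 18.6, 19 and 21.4 FPKM in sham and 24.1, 22.9 and 23.8 FPKM in HI (0.26 ± 0.07) with groups apart, while Sox10, of the same lineage, overlapped at 21.9, 23.4 and 28.9 FPKM in sham and 33.6, 25.8 and 31.7 FPKM in HI (0.29 ± 0.12).

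Microglial markers stood on both sides. Of 18 tested markers, 12 were higher and 6 lower on average, with a median of 0.02. At an unadjusted limma p under 0.05, 3 were higher and 1 lower (16.7% and 5.56%, against 3.45% and 3.16% of all genes). At that threshold 2 were higher without sham 1, sham 3 or HI 1 and 5 without HI 3. Ctss, a lysosomal protease abundant in microglia, stood at 41.7, 42.6 and 47.4 FPKM in sham and 63.2, 52.8 and 57.4 FPKM in HI (0.39 ± 0.08, limma adjusted p = 0.599). C1qc, a chain of the complement protein C1q that tags synapses for removal, stood at 17.5, 19 and 22.4 FPKM in sham and 24.8, 24.1 and 26.2 FPKM in HI (0.34 ± 0.09), and Cd68, a lysosomal marker, at 1.61, 1.83 and 1.45 FPKM in sham and 3.06, 2.01 and 2.17 FPKM in HI (0.36 ± 0.14). These 3 were higher in every HI library. Fcrl2, a member matched by its synonym Fcrls and named after its values were seen, had the largest difference of the list, at 9.83, 9.28 and 10.4 FPKM in sham and 22.9, 24.3 and 8.42 FPKM in HI (0.72 ± 0.33), but HI 3 lay below sham. Tyrobp, the adaptor of TREM2, went the other way, at 17.1, 17 and 15.4 FPKM in sham and 11, 14.5 and 10.6 FPKM in HI (-0.44 ± 0.11). In the complement list 1 of 14 was at that threshold (7.14% against 3.45% of all genes), C1qc. Its partner C1qa stood at 27.4, 26.8 and 26 FPKM in sham and 29, 32.8 and 28.2 FPKM in HI (0.16 ± 0.07). Genes of activated microglia had 0 of 12 at the threshold in either direction, and Axl and Lgals3 stood at 10.1, 10.4 and 10.5 FPKM against 9.54, 8.83 and 9.35 FPKM and 2.96, 2.19 and 1.33 FPKM against 3.34, 5.08 and 2.15 FPKM in sham against HI.

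The TLR4, MyD88 and NF-κB pathway, the study's subject, had 1 gene at an unadjusted p under 0.05. TLR4 senses lipopolysaccharide with CD14, and MyD88, IRAK kinases and TRAF6 pass the signal to IκB kinase, which frees NF-κB. Of 25 listed members 21 were tested, 15 higher and 6 lower on average, with a median of 0.02, and the 1 gene makes 4.76%, against 3.45% of all genes. It was Chuk, a subunit of IκB kinase, at 6.76, 7.41 and 7.34 FPKM in sham and 9.54, 8.06 and 8.5 FPKM in HI (0.25 ± 0.09, limma adjusted p = 0.716; 0.18 without HI 1). Tlr4 was below the filter, at 0.287, 0.116 and 0.185 FPKM in sham and 0.697, 0.324 and 0.436 FPKM in HI, with all HI libraries above all sham libraries but none at 1 FPKM, and Cd14 was below it as well, at 0.687, 1 and 0.949 FPKM in sham and 0.886, 0.891 and 0.683 FPKM in HI. Tested without a filter, Tlr4 had a log2 difference of 0.31 ± 0.15 (limma adjusted p = 0.745).

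The adaptor Myd88 stood at 3.43, 2.38 and 3.21 FPKM in sham and 2.92, 2.86 and 2.57 FPKM in HI (-0.07 ± 0.13). The kinase genes Irak1 and Irak4 stood at 45.9, 44.6 and 43.4 FPKM in sham and 45.4, 44.2 and 44.4 FPKM in HI (0.00 ± 0.05) and at 1.36, 1.34 and 1.56 FPKM in sham and 1.32, 1.25 and 0.788 FPKM in HI (-0.20 ± 0.14). Traf6, the ligase after them, stood at 1.42, 1.42 and 0.981 FPKM in sham and 1.4, 1.43 and 1.61 FPKM in HI (0.13 ± 0.13). Among these, the groups were apart for Irak4 alone, where HI was lower. The NF-κB subunit genes Nfkb1 and Rela stood at 7.29, 6.51 and 6.62 FPKM in sham and 7.35, 6.14 and 6.34 FPKM in HI (-0.04 ± 0.09) and at 11.3, 13 and 14 FPKM in sham and 13.3, 12.9 and 11.3 FPKM in HI (-0.03 ± 0.10). Nfkbia, the inhibitor that NF-κB itself induces, stood at 13.7, 15.3 and 17.8 FPKM in sham and 14.7, 19.5 and 19.1 FPKM in HI (0.18 ± 0.13; 0.30 without HI 1). All 3 overlapped between the groups. Irak3, an inhibitory kinase of the pathway, stood at 0.836, 0.646 and 0.99 FPKM in sham and 1.29, 1.03 and 1.15 FPKM in HI (0.24 ± 0.13). It reached the filter through HI alone.

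Of 22 cytokines and chemokines 7 were listed, all tested, with 1 higher and 2 lower at an unadjusted limma p under 0.05. These are 14.3% and 28.6%, against 3.45% and 3.16% of all genes. Il1b, Tnf, Il6 and the TLR4 partner Ly96 were not analysed here. Il34, a ligand of the microglial receptor CSF1R, stood at 22.6, 25.4 and 23.8 FPKM in sham and 17.4, 20.7 and 21.6 FPKM in HI (-0.26 ± 0.09), and Csf1, the other ligand, at 4.18, 4.79 and 4.9 FPKM in sham and 3.85, 3.56 and 3.99 FPKM in HI (-0.23 ± 0.09). Both were lower in every HI library. Il33, a cytokine of glial nuclei, stood at 13.8, 13.7 and 15.2 FPKM in sham and 15.5, 17.3 and 15.7 FPKM in HI (0.18 ± 0.07). Aim2, the DNA sensor of the inflammasome, stood at 2.69, 1.54 and 3.08 FPKM in sham and 5.76, 3.17 and 4.33 FPKM in HI (0.66 ± 0.22, or 0.48 without HI 1). It was the 1 of 7 tested inflammasome genes at that threshold (14.3% against 3.45% of all genes). In the interferon list 1 of 15 was at it, in the lower direction (6.67% against 3.16% of all genes). It was Ddx58, the RNA sensor RIG-I, at 1.35, 1.24 and 1.25 FPKM in sham and 0.872, 0.683 and 0.976 FPKM in HI (-0.31 ± 0.13). Ddx58 reached the filter through sham alone.

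No gene of these lists of energy metabolism passed over all genes (lowest limma adjusted p = 0.685). Among 33 tested hypoxia and glycolysis genes, 16 were higher and 17 lower, with a median of -0.01. At an unadjusted limma p under 0.05, 3 were higher and 5 lower (9.09% and 15.2%, against 3.45% and 3.16% of all genes). These numbers were 2 and 2 without HI 1 and 1 and 1 without sham 2. Slc2a1, the glucose transporter of the blood-brain barrier, stood at 41.5, 42.6 and 43.9 FPKM in sham and 48.1, 46.3 and 48.2 FPKM in HI (0.15 ± 0.05). The glycolytic enzyme genes Eno1 and Pfkm stood at 431, 438 and 449 FPKM in sham and 379, 393 and 401 FPKM in HI (-0.17 ± 0.05) and at 176, 183 and 182 FPKM in sham and 161, 162 and 168 FPKM in HI (-0.14 ± 0.05). Slc2a1 was thus higher and the enzymes lower in every HI library. Of 44 nuclear genes of oxidative phosphorylation 37 were lower on average, 4 at that threshold (9.09% against 3.16%), with a median of -0.07, whereas all 12 listed mitochondrial ones were higher, 1 at the threshold (8.33% against 3.45%), with a median of 0.12. Libraries overlapped in both, since the mean of the nuclear list in HI 2 lay within sham and that of the mitochondrial list in sham 1 lay above HI 3. Cyc1, cytochrome c1, stood at 141, 139.6 and 147 FPKM in sham and 111, 128 and 132 FPKM in HI (-0.20 ± 0.07), and Mt-co2, a subunit of cytochrome c oxidase, at 6458, 5728 and 6113 FPKM in sham and 7172, 7491 and 6506 FPKM in HI (0.21 ± 0.08). Without HI 1, 31 of the 44 were lower, 0 at the threshold in that direction, and 10 of the 12 were higher; without HI 2, 8 of the 44 were lower at it.

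Of the presynaptic release genes 19 of 23 were lower on average and 3 at an unadjusted p under 0.05 (13% against 3.16%), with a median of -0.06. Syn2, a synapsin of the vesicle pool, stood at 121, 136 and 115 FPKM in sham and 97.1, 104 and 111 FPKM in HI (-0.24 ± 0.08), Cplx1, a complexin, at 256, 262 and 248 FPKM in sham and 215, 243 and 227 FPKM in HI (-0.16 ± 0.06) and Stx1a, a syntaxin of vesicle fusion, at 98.2, 101 and 93.5 FPKM in sham and 64.8, 90.8 and 87.3 FPKM in HI (-0.28 ± 0.12; -0.13 without HI 1). HI 1 was the lowest library in all 3. Without it 1 member was lower and 1 higher at the threshold, and without sham 2, 0 were. Glutamate receptor genes had 0 of 21 at the threshold, and Grin1, the obligatory NMDA receptor subunit, stood at 126, 127 and 120.2 FPKM in sham and 116, 115 and 121 FPKM in HI (-0.09 ± 0.05). Dlg3, a scaffold of the postsynaptic density, stood at 37.1, 36.8 and 38.7 FPKM in sham and 36, 20.7 and 20.8 FPKM in HI (-0.57 ± 0.19), with HI 1 beside sham; without HI 1 it fell by 0.82 on the log2 scale and passed (limma adjusted p = 0.0179). Gabrg1, a GABA receptor subunit, stood at 26.3, 24.3 and 23.9 FPKM in sham and 20.3, 17.8 and 22.3 FPKM in HI (-0.29 ± 0.09). Cck, a peptide of interneurons, stood at 109, 119 and 131 FPKM in sham and 81.8, 90.3 and 104 FPKM in HI (-0.38 ± 0.10), and Grp, gastrin-releasing peptide, at 18.2, 19.1 and 17.8 FPKM in sham and 6.34, 18.3 and 9.74 FPKM in HI (-0.75 ± 0.29; -0.43 without HI 1), where HI 2 was within sham. Of 18 tested subfield markers 1 was at the threshold, in the lower direction (5.56% against 3.16% of all genes). It was Mpped1, a marker of CA1, at 63.9, 65.6 and 60.0 FPKM in sham and 48.7, 59.6 and 56.9 FPKM in HI (-0.20 ± 0.08).

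Single members of the growth factor, stress and chromatin lists stood apart. Fgf2, a fibroblast growth factor of astrocytes, stood at 0.932, 1.01 and 0.785 FPKM in sham and 2.37, 1.28 and 1.79 FPKM in HI (0.55 ± 0.16; 0.41 without HI 1), and Ntf3, neurotrophin 3, at 8.27, 7.15 and 8.19 FPKM in sham and 11.5, 9.51 and 9.44 FPKM in HI (0.33 ± 0.10). Both were higher in every HI library. Cdkn1a, the cell cycle inhibitor p21, stood at 4.37, 4.82 and 4.82 FPKM in sham and 10.1, 5.98 and 5.64 FPKM in HI (0.50 ± 0.18; 0.26 without HI 1). Ash1l, a histone methyltransferase, stood at 4.92, 5.36 and 4.99 FPKM in sham and 11.5, 8.01 and 6.58 FPKM in HI (0.64 ± 0.17; 0.44 without HI 1), highest in HI 1 as well. Per1 and Rorb, genes of the circadian clock, stood at 13.9, 15.3 and 13.6 FPKM in sham and 17.3, 16.4 and 18.1 FPKM in HI (0.26 ± 0.07) and at 1.03, 1.06 and 1.27 FPKM in sham and 2.17, 1.54 and 1.74 FPKM in HI (0.41 ± 0.13). They were the 2 of 18 tested clock genes at the threshold (11.1% against 3.45% of all genes), 15 being higher on average. Rorb is in the list of cerebral cortex and striatum as well, as its 1 of 14 at the threshold (7.14%), so the counts of these 2 lists are not independent. Heat shock and unfolded protein response genes had 0 of 28 at the threshold in either direction, with a median of 0.02 and log2 differences between -0.13 and 0.14. Of the genes of apoptosis and cell death, 2 of 22 were higher and 1 lower at it (9.09% and 4.55%, against 3.45% and 3.16% of all genes).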

How the data were processed

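RNA of 6 hippocampus libraries, 3 HI and 3 sham by the treatment labels, was used as deposited. Per the labels' protocols, RNA was extracted with TRIzol and mRNA was fragmented and amplified; the sources used here name no aligner, quantifier, build or annotation. The authors deposited FPKM per gene and library, per the file headers. Another 6 per-sample columns, of the colon, were not used. Whole-read steps were looked for in ratios of values under 0.5 FPKM: at most 4 of 58 to 157 genes per pair of libraries shared 1 ratio within 0.1%, so depth is unknown, precision in reads cannot be given, and no count test was run.

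Genes reaching 1 FPKM in 3 or more libraries were tested on log2(FPKM + 1) with limma 3.58.1 (R 4.3.3; lmFit, eBayes with trend, two-sided) and Benjamini-Hochberg adjustment over 13181 genes, with a threshold of 0.05; the script was also tested on simulated data. Alternatives were a pseudocount of 0.1, no filter, a mean of at least 5 FPKM, median-ratio scaling, no trend, a replicate block, a myelin score as covariate and each library left out. Members of 44 lists (1012 entries, 880 found by symbol, 14 by RefSeq synonym, 118 not listed) are given as counts and medians. Members and lists were chosen with earlier results of these data known. Named genes are up to 10 per direction with the smallest p, non-overlapping groups and a mean of at least 1 FPKM. Genes with no symbol or a provisional name (LOC, RGD or AABR) were left out of these. Also named are up to 4 members with the smallest p per list described, the genes of the TLR4 pathway and the most abundant markers. Others are said to be chosen afterwards. A gene that this rule took is not reported here. Of 14114 symbols 12563 matched a RefSeq symbol (GRCr8), the source of the promoters.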

Additional observations from a re-analysis of the deposited data

Results flagged for a closer look

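Signal in genes that the comparison did not test stood out in 1 library. Of the choroid plexus markers below the filter on low values, 12 stood at 1 FPKM or more in HI 1 and under 1 FPKM in every sham library. They ranged from 3.57 to 49.1 FPKM in HI 1 and reached at most 0.705 FPKM in any other library, HI 2 and HI 3 included. Their part in the differences between HI and sham was not tested, and the report gives its main counts without HI 1 beside those with it.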

How the results depend on the processing

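The number of genes past an adjusted p of 0.05, 1 as reported, was 1 with no filter or median-ratio scaling, 0 with a pseudocount of 0.1, a mean of at least 5 FPKM, no mean-variance trend or a myelin score as covariate, and 0 to 5 when 1 library was left out; it was 0 without sham 2 or sham 3. Genes at an unadjusted p under 0.05 and higher in HI, 455 as reported, were 295 with a mean of at least 5 FPKM and 283 (without sham 1) to 831 (without HI 2) with 1 library left out, and those lower, 417, were 204 (without sham 2) to 797 (without HI 2). Of 103 named genes tested, 6 near 0 changed direction when 1 library was left out and the others kept theirs wherever they were tested: Myd88 lay between -0.19 and 0.0030, Irak1 between -0.018 and 0.022, Nfkb1 between -0.11 and 0.0065, Rela between -0.11 and 0.040, Nr3c1 between -0.10 and 0.032 and Tsc22d3 between -0.0090 and 0.035 on the log2 scale. Of the medians of 44 lists, 10 moved by more than the spread between libraries under at least 1 alternative, 19 times in all, and the other 552 values stayed within it.

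Equal replicate numbers did not pair the libraries: their deviations from the group means correlated at -0.05, 0.08 and -0.03, and HI 1 correlated best with sham 3 (0.14). With a replicate block 0 genes passed (Rn60_20_0051.7, adjusted p = 0.315). With no depth in reads, low genes such as Tlr4 have no counting error to set beside their values, and 3 libraries per group limit every statement.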

Other observations

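Genes that passed over all genes when 1 library was left out, named after their values were seen, were these beside Rn60_20_0051.7. Without HI 1, Map4, a protein that stabilises microtubules, passed with Dlg3 (log2 difference 0.84, limma adjusted p = 0.0183); its levels were 32.5, 34.9 and 32.1 FPKM in sham and 38.5, 63.1 and 57.5 FPKM in HI, with HI 1 the lowest of its group. Without HI 2, Elk4, a partner of serum response factor, passed (-1.90, limma adjusted p = 0.00521) at 4.66, 4.32 and 4.49 FPKM in sham and 0.492, 4.69 and 0.443 FPKM in HI, as did the histone gene H3f3c (-0.86, limma adjusted p = 0.00991) at 59.3, 56 and 58.5 FPKM in sham and 30.4, 57.4 and 32.4 FPKM in HI. In both HI 2 stood among or above the sham libraries. Without HI 2, Elk4 met the filter through the sham libraries alone, where it was high, so that pass is no support of its own. H3f3c has near-identical copies whose reads the counting may split, so its value is uncertain. Without HI 3, Urgcp passed (-0.90, limma adjusted p = 0.0379) at 15.2, 15.3 and 15.6 FPKM in sham and 7.6, 7.96 and 14.4 FPKM in HI, with Fcrl2 (1.19, limma adjusted p = 0.0258) at 9.83, 9.28 and 10.4 FPKM in sham and 22.9, 24.3 and 8.42 FPKM in HI, Tmem258b (1.29, limma adjusted p = 0.0379) at 1.82, 1.85 and 2.09 FPKM in sham and 6.42, 5.86 and 1.44 FPKM in HI and RGD1562420 (0.89, limma adjusted p = 0.0406) at 22.5, 20.3 and 22.3 FPKM in sham and 43, 39.1 and 31.6 FPKM in HI. HI 3 lay below every sham library in Fcrl2 and Tmem258b and above them in RGD1562420. Without sham 1, 3 genes with provisional names passed. LOC689986 stood at 20.7, 0.179 and 0.334 FPKM in sham and 11.7, 19.8 and 12.6 FPKM in HI, NEWGENE_1306399 at 2.1, 0 and 0 FPKM in sham and 2.11, 2.48 and 2.23 FPKM in HI and AABR07024068.1 at 3.68, 0 and 0 FPKM in sham and 4.47, 4.1 and 3.38 FPKM in HI. In each sham 1 stood at or near the level of the HI libraries while sham 2 and 3 were near 0 or listed at 0, so that without sham 1 these genes met the filter through HI alone, and no fold is given. With all 6 libraries the lowest adjusted p of these genes was 0.251, that of RGD1562420.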
